A study of Mus musculus with 31 samples.

Results

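The genes described here encode the nuclear subunits of the mitochondrial respiratory chain and of ATP synthase. They were taken by name: every non-control probe whose gene name begins with Nduf followed by a, b, c, s or v (without the Ndufaf assembly factors), with Uqcr, with Cox and a digit from 4 to 8, or with Atp5, or is Sdha, Sdhb, Sdhc or Sdhd. The rule found 86 of the 36161 gene names on the array, measured by 121 probes, and the probe with the highest mean signal over all arrays stood for each gene. Of these genes 75 encode subunits found in most tissues: 36 of complex I, 4 of complex II, 8 of complex III, 12 of complex IV and 15 of complex V, the ATP synthase. Another 8 are complex IV paralogs known from particular tissues or from hypoxia (Cox4i2, Cox6a2, Cox6b2, Cox7a1, Cox7b2, Cox8b, Cox8c and Ndufa4l2). The remaining 3 only share the name: Cox4nb is a subunit of the endoplasmic reticulum membrane complex, now called Emc8, and Atp5s and Atp5sl, now Dmac2l and Dmac2, are not part of the enzyme. Of the 86 genes 85 entered the tests, each well above background on all 31 arrays. Cox8c, the testis paralog of Cox8a, was well above background on 0 arrays and was left out.

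The 31 samples are brain RNA of female C57BL/6 mice aged 6 weeks, each on 1 single-colour Agilent array. Under ketamine and xylazine, each mouse received 200 µl into the tail vein, of physiological serum (the controls) or of oleic acid, the latter dosed by body weight at 1.2 µl/g. Oleic acid given by this route is a standard way to cause acute lung injury, and the study asked about the brain during that injury. Brains were taken after 1, 1.5, 3, 4, 18 or 24 h, and each treatment has 3 samples at the times 1 and 1.5 h. At 3, 4 and 24 h there are 2 serum and 3 oleic acid samples, while 18 h has 2 of either. By the protocol all mice, serum controls included, were anaesthetised and injected, and no uninjected group is used here. The labels give no pooling and no brain region. They also do not say that the samples of a group came from separate mice, so p-values measure only the spread between these samples, which may be technical.

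Complex I takes electrons from NADH and complex II from succinate. Complexes III and IV pass them on to oxygen while protons are pumped across the inner membrane, and complex V uses the returning protons to make ATP. Neurons depend on this chain for most of their ATP, and nuclear genes supply all of complex II and most of the other subunits, while the mitochondrial genome supplies the rest. Transcription of the nuclear genes is commonly described with the factors NRF1, the ETS factor GABP and YY1, and the coactivator PGC-1alpha.

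Promoters of the subunit genes are described here, and no link between their motifs and the levels on the arrays was tested. RefSeq windows of 300 bases on GRCm38.p6, from 250 bases before to 50 bases after the start, were matched for 64 of the 75 subunit genes. Each window was searched on both strands for GCATGCG (the core of the NRF1 site), CCGGAAG (ETS) and AAGATGG (YY1). The NRF1 letters lay in the windows of 11 subunit genes, 17.2%, and of 4.01% of all 27025 genes with a window. The ETS letters lay in 16, 25%, against 9.93%, and the YY1 letters in 11, 17.2%, against 7.28%. Of the subunit genes with the YY1 letters, only Atp5j had them wholly before the start. The other YY1 matches reached into the 50 bases after it, and positions were not compared with those in all genes. At least 1 of the 3 was present for 31 subunit genes, 48.4%, against 19.3% of all genes, and for 0 of the 4 restricted paralogs with a window. Subunit windows were also richer in G and C, with a median of 58.3% against 52.7%, and a match is a description of letters and not of binding. The stretches below are from the 3 genes with at least 2 kinds of motif before the start, with the matches in capitals, read along the gene's own strand; where GCATGCG overlaps its own reverse complement, both count as sites. Atp5j (complex V stalk, minus strand, chr16:84835011-84835143) carries all 3 kinds, Atp5l (complex V membrane part, minus strand, chr9:44920928-44920992) carries the NRF1 and ETS letters, and so does Cox6a1 (complex IV, minus strand, chr5:115348959-115349139).
Atp5j: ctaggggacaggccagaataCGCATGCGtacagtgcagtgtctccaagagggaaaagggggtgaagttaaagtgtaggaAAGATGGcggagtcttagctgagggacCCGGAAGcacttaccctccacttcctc
Atp5l: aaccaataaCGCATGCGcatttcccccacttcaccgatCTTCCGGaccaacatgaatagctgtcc
Cox6a1: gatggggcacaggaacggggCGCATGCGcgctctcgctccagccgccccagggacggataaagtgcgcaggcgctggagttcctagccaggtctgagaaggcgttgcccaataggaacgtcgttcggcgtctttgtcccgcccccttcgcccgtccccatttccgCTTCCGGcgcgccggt

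Levels are given as log2 signal after subtraction of an array's own 75th percentile, and differences are on the same log2 scale. Subunit genes varied little between samples of a group: their median within-group SD was 0.149, against 0.232 for all 25204 genes tested, and 73 of the 75 were below that all-gene median. All of them but Ndufab1 had a mean level above the 75th percentile, and no comparison with genes of like signal was made. Subunit genes also varied together. Over the 31 arrays, after each group's mean was taken away, pairs of subunit genes had a median correlation of 0.486, and 88.8% of pairs were above 0. Complex I genes among themselves had a median of 0.517 and the 4 complex II genes 0.116. Pairs of a subunit gene and a cytosolic ribosomal protein gene had a median of 0.503, and pairs of a subunit gene and any gene 0.0445. These correlations share the same arrays and their scaling, and are a description.

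The arrays lay on 5 slides, and the mean of the subunits of complexes I to V followed the slide. With each gene centred on its own mean, the 8 arrays of slide 4 spanned 0.031 to 0.314, with a median of 0.147. The medians of the other slides were 0.002 for slide 1, -0.115 for slide 2, -0.052 for slide 3 and -0.017 for slide 5. By the file headers, the 3 arrays of slide 2 were scanned on another day than all other arrays. Slide accounted for 59.3% of the spread of this mean, time for 45.1% and treatment for 6.73%, shares that overlap because times and slides overlap. The lowest array was oleic acid 24 h replicate 3, at -0.312, and the highest serum 4 h replicate 2, at 0.314. The cytosolic ribosomal protein genes had the same extreme arrays, at -0.362 and 0.353. The 1 h samples of both treatments shared slide 1, and those of 4 h shared slide 4. At 18 h serum was hybridised on slide 4 and oleic acid on slide 5, where treatment and slide cannot be told apart.

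**Figure D1:**
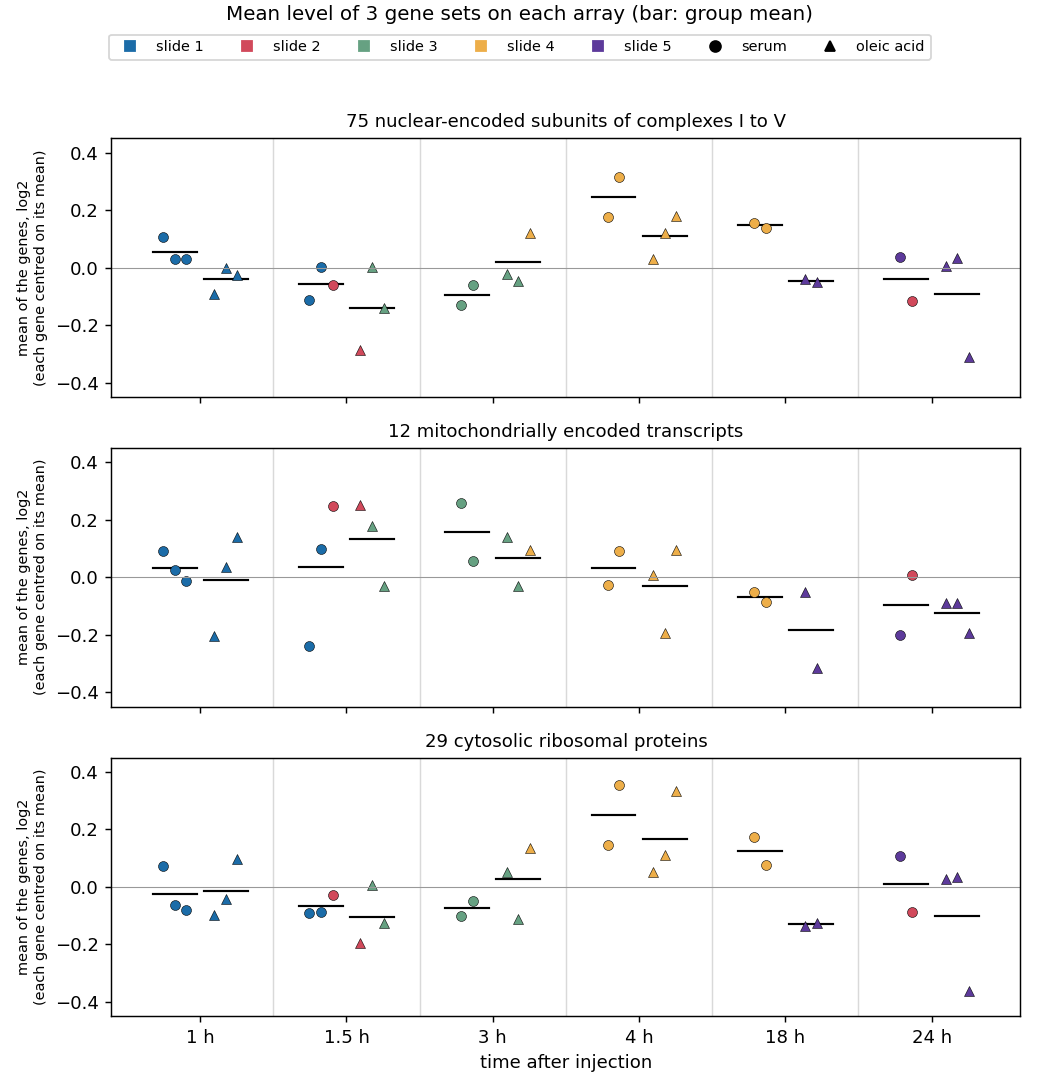
Mean level of the 75 subunit genes, of 12 mitochondrially encoded transcripts and of 29 cytosolic ribosomal protein genes on each array (log2, each gene centred on its mean; circles serum, triangles oleic acid, colour the slide, bars the group means), by time after injection. The slide 4 arrays of the subunit genes all lie above 0, from 0.031 to 0.314.

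At 1 h, 64 of the 85 genes were lower in oleic acid samples, with a median difference of -0.091, while 49.6% of all genes were lower and the all-gene median was 0.002. No gene on the array passed an adjusted p of 0.05 by limma, so the share called was 0% for the members and for all genes. At an unadjusted p of 0.05 there were 5 members, beside 4.84% of all genes. In 19 members every oleic acid sample was below every serum sample, and in 0 every one was above, beside 5.79% and 4.11% of all genes. The accessory subunits of complex I, which surround and stabilise its catalytic core, were lower in 27 of 29 with a median of -0.118, and the 7 core subunits had a median of 0.006, with 3 lower. All arrays here were on slide 1.

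Ndufab1, the mitochondrial acyl carrier protein that is also a complex I subunit, had the lowest t at 1 h. Its only probe had a median level of -1.82 over all arrays, against 2.42 for Ndufa8, the next lowest complex I gene. How well this probe measures the gene was not tested. Ndufab1 stood at -1.77, -1.58 and -1.61 in serum samples and at -1.90, -2.10 and -2.31 in oleic acid samples. All 3 oleic acid samples were below all 3 serum samples, with a difference of -0.45 ± 0.15 (SE), a 1.37-fold lower signal (limma, unadjusted p = 0.00647, adjusted p = 0.873). Ndufc1, a small accessory subunit of the membrane arm, stood at 5.06, 4.98 and 4.86 in serum and at 4.59, 4.90 and 4.35 in oleic acid samples, groups that overlap. Ndufa12, an accessory subunit next to the NADH-oxidising part, stood at 5.69, 5.67 and 5.71 against 5.45, 5.63 and 5.23, which do not overlap. The highest t among members belonged to Cox6b2, Ndufa9 and Uqcrc1, a core protein of complex III, at differences of 0.27, 0.18 and 0.18. Ndufa9 and Uqcrc1 were high through oleic acid replicate 3 alone (4.66 and 5.06, with the other oleic acid samples at 3.98 and 4.02 and at 4.22 and 4.29), and without it their differences were -0.034 and -0.092. Without the same array the difference of Cox6b2 was 0.031. This array had the lowest 75th percentile of intensity of the series, 306, and the lowest share of spots well above background, 54.3%. Red blood cell genes were lower in oleic acid samples in 6 of 7 at this time and liver genes in 9 of 9, with medians of -1.27 and -2.36. Oligodendrocyte genes were lower in 8 of 9 (-0.208) and choroid plexus genes in 8 of 8 (-0.291). The part of these lists in the differences above was not tested.

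At 1.5 h, 68 of 85 members were lower in oleic acid samples, with a median of -0.094 and 52.2% of all genes lower. No gene on the array was called (0%), 3 members had an unadjusted p under 0.05 beside 5.28% of all genes, and 7 members were lower in every oleic acid sample beside 6.31%. The levels of Ndufs1, the largest iron-sulfur core subunit of complex I, were 4.93, 4.90 and 4.8 in serum and 4.59, 4.68 and 4.73 in oleic acid samples. The groups did not overlap and differed by -0.21 ± 0.09 (adjusted p = 0.9). Ndufab1 stood again lower, at -1.50, -1.83 and -1.92 against -2.44, -1.87 and -1.99, but the groups overlapped. Sdhc, a membrane anchor of complex II, stood at 4.12, 3.97 and 4.01 against 3.97, 3.75 and 3.72, with overlap. Cox4i2, known as the oxygen-sensitive paralog of Cox4i1, was the member with the highest t, at 0.30 ± 0.21, followed by Ndufa6 and Cox6b1 at 0.07 and 0.05, all with overlap. Serum arrays of this time were on slides 1 (2 arrays) and 2 (1 array). Those of oleic acid were on slides 2 (1 array) and 3 (2 arrays), so treatment and slide could largely not be told apart. The median rested much on 1 array: without oleic acid replicate 1, on slide 2, it was -0.026. That array was the only oleic acid array on a slide with a serum array, so -0.026 compares different slides. All 11 cerebellar genes were lower in oleic acid samples at 1.5 h, with a median of -0.588, and all 7 red blood cell genes, with one of -0.391; their part was not tested.

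At 3 h the direction was the other one. Of 85 members 72 were higher in oleic acid samples and 13 lower, with a median of 0.114, while 46.3% of all genes were lower and the all-gene median was 0.022. The medians by complex were 0.130 for I, 0.147 for II, 0.121 for III, 0.108 for IV and 0.116 for V. No gene was called (0%), 1 member had an unadjusted p under 0.05 beside 4.85% of all genes, and 15 members were higher in every oleic acid sample, and 1 lower, beside 10.1% and 7.66%. Ndufs1 stood at 4.48 and 4.77 in serum and at 4.84, 4.79 and 5.02 in oleic acid samples, without overlap, at 0.26 ± 0.10 (adjusted p = 0.938). Cox8b, a muscle paralog of Cox8a, stood at -1.72 and -0.96 against -0.95, -0.74 and -0.94, groups that did not overlap although 1 serum sample was close to the oleic acid samples. Ndufb2, an accessory subunit of complex I, stood at 4.93 and 5.17 against 5.38, 5.16 and 5.39, with overlap. The lowest t belonged to Cox4i2, Cox4nb and Cox6b2, at -0.30 ± 0.23, -0.14 ± 0.16 and -0.20 ± 0.23. Of these Cox6b2 did not overlap, at -0.21 and -0.29 in serum and -0.44, -0.56 and -0.35 in oleic acid samples. Cox4nb overlapped, and its sign rested on 1 serum sample: it was 0.125 without serum replicate 1. Oleic acid replicate 3 was the only 3 h array on slide 4, and without it the median was 0.066. Red blood cell genes were lower in 7 of 7 at 3 h, median -1.24, and microglia genes higher in 8 of 9, median 0.169; their part was not tested.

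At 4 h, with all arrays on slide 4, 69 of 85 members were lower in oleic acid samples. The median was -0.146 and that of all genes 0.008, with 48.6% of all genes lower. No member passed the test, and 1 gene of all did (0.00397%). At an unadjusted p of 0.05 there were 3 members beside 3.04% of all genes, and 31 members were lower in every oleic acid sample, and 1 higher, beside 8.68% and 9.47% of all genes. All 8 complex III genes and all 12 complex IV genes were lower, with medians of -0.183 and -0.173, as were 27 of 29 accessory and 4 of 7 core subunits of complex I (medians -0.169 and -0.050). In complex V the 6 membrane (Fo) genes were all lower, median -0.221, the 4 stalk genes had a median of -0.132 and the 5 catalytic (F1) genes one of -0.022. Complex II had a median of -0.024, with 2 of 4 lower.

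Among the 4 h values, Atp5j2, the f subunit of the membrane part, stood at 6.21 and 6.32 in serum and at 5.72, 5.98 and 6.05 in oleic acid samples, a difference of -0.35 ± 0.14 (1.27-fold, adjusted p = 0.996). Cox5a, a matrix-side subunit of complex IV, stood at 7.01 and 6.99 against 6.63, 6.84 and 6.73. Ndufa1, an X-linked accessory subunit of complex I, stood at 5.52 and 5.58 against 5.17, 5.34 and 5.30. None of these 3 overlapped between the groups. Without oleic acid replicate 1 their differences were -0.248, -0.216 and -0.232, the smallest with any 1 sample left out. That array had 76.3% of spots well above background, the highest share of the series, and the highest all-gene mean, 0.140. The highest t included those of Atp5f1 and Cox4nb, at 0.15 and 0.14, both with overlap. Atp5f1, a stalk subunit, ran from 4.10 to 4.75 in the serum samples and from 4.54 to 4.63 in oleic acid samples. The 4 h median was -0.060 without serum replicate 2, the highest array of the series, and -0.209 without serum replicate 1. It was -0.342 when arrays were scaled to their median instead, a scaling that moved the all-gene median to -0.188, and Atp5f1 and Cox4nb then came out lower, at -0.049 and -0.061. Within these serum samples the cerebellar gene mean ran from -2.86 to 1.22, and in the oleic acid samples from -2.76 to 1.31. Choroid plexus genes were lower in 7 of 8 (median -0.170) and liver genes higher in 7 of 9 (1.31), and the part of these lists was not tested.

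The 18 h comparison gave the widest median difference of the 6 times at the main scaling, with 2 samples a group on different slides. Of 85 members 77 were lower in oleic acid samples, with a median of -0.194, against 54.9% of all genes and an all-gene median of -0.040. All 36 complex I genes, all 4 of complex II and all 12 of complex IV were lower. The mean of the subunits of complexes I to V was 0.156 and 0.138 in serum samples and -0.040 and -0.050 in oleic acid samples. No gene was called (0%). Unadjusted p under 0.05 was reached by 2 members beside 7.28% of all genes, and 57 members were lower in both oleic acid samples than in both serum samples, beside 29.5% of all genes. Ndufv2, an iron-sulfur subunit of the NADH-oxidising part, stood at 4.90 and 5.01 against 4.68 and 4.73, at -0.25 ± 0.12 (adjusted p = 0.671). Ndufs4, an accessory subunit whose loss causes a Leigh-like disease in mice, stood at 4.03 and 3.95 against 3.71 and 3.75. Atp5s was higher in both oleic acid samples, at 0.16 ± 0.17.

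This 18 h shift depended on how arrays were put on 1 scale. The median of the members was -0.022 after quantile normalization and -0.000036 in the deposited value table, where 39 of the 75 subunits of complexes I to V were lower, and it was 0.028 with slide as a fixed term, which borrows the slide difference from other times. Scaling to the median gave -0.331, with an all-gene median of -0.177. Ndufs4 and Ndufv2 turned to 0.112 and 0.291 with slide as a fixed term. At the same time 29 of 29 cytosolic ribosomal protein genes were lower in oleic acid samples (median -0.264), 27 of 29 mitochondrial ribosomal protein genes (-0.181), 9 of 9 microglia genes (-0.393), 7 of 7 red blood cell genes (-0.772) and 8 of 8 striatal genes (-0.270). All 11 cerebellar genes were higher (1.72), with 1 serum sample at a cerebellar gene mean of -1.89 and the other 3 samples from 1.06 to 1.47, and 6 of 12 neuronal genes were lower. The part of these in the difference was not tested, and in brain tissue fewer cells of a type cannot be told apart from less RNA per cell.

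At 24 h, 57 of 85 members were lower in oleic acid samples, with a median of -0.068, and 57.2% of all genes were lower, with a median of -0.044. No gene was called (0%). Unadjusted p under 0.05 was reached by 6 members beside 6.58% of all genes, and 7 members were higher and 7 lower without overlap, beside 12.3% and 16.6%. Ndufa10, an accessory subunit of complex I, stood at 4.12 and 4.01 in serum and at 3.87, 3.83 and 3.72 in oleic acid samples, at -0.26 ± 0.09 (adjusted p = 0.707). Ndufa8 went the other way, at 2.01 and 2.17 against 2.41, 2.71 and 2.36, a difference of 0.40 ± 0.16. Ndufc2 stood at 5.35 and 5.39 against 5.15, 5.14 and 4.97. The groups of these 3 genes did not overlap. Ndufs8, also among the 3 lowest t, stood at 3.72 and 3.36 against 3.36, 3.33 and 3.00, apart by less than the last digit shown. Atp5f1 stood at 3.74 and 3.94 against 3.98, 4.10 and 4.29, higher without overlap, and Atp5j at 4.28 and 4.50 against 4.66, 4.67 and 4.47, with overlap. The direction of the median rested on single arrays: it was 0.055 without oleic acid replicate 3, the lowest array of the series, and -0.174 without serum replicate 2, the only 24 h array on slide 2. It was also above 0 after scaling to the median, at 0.047, and in the deposited value table, at 0.033. All 9 oligodendrocyte genes were lower at 24 h, with a median of -0.165, and all 11 cerebellar, 8 choroid plexus and 6 pituitary genes were higher, with medians of 0.303, 0.313 and 0.632. Pericyte and smooth muscle genes were lower in 7 of 8 (-0.160) and red blood cell genes in 6 of 7 (-0.243); the part of these lists was not tested.

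**Figure D2:**
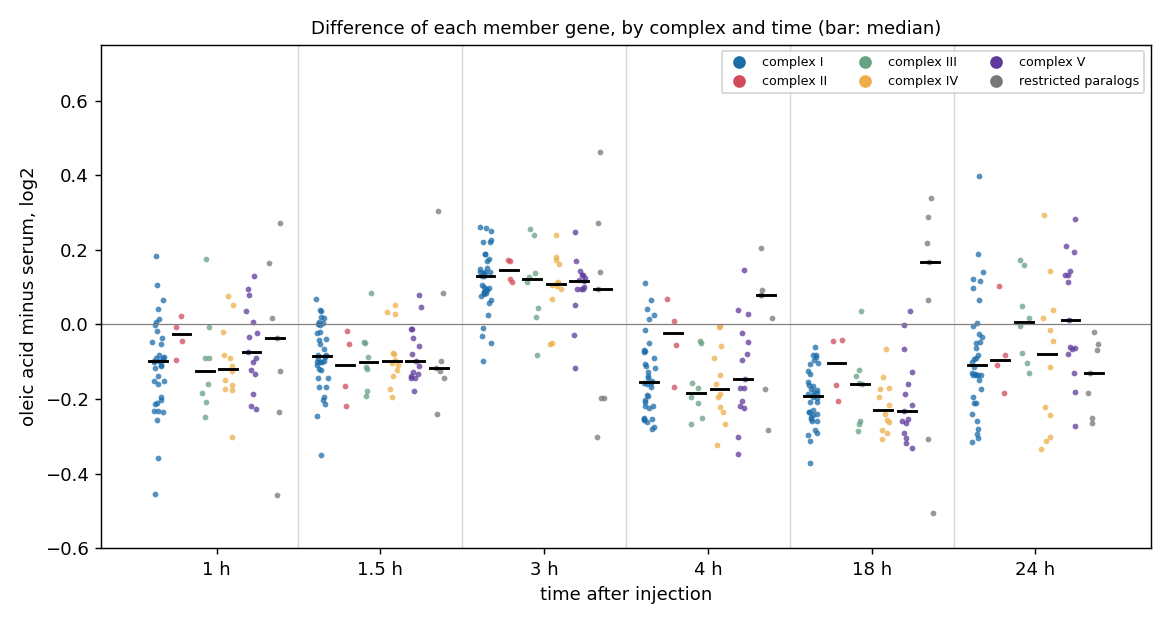
Difference between oleic acid and serum samples (log2) for each member gene, grouped by complex at each time after injection; points are genes and bars are medians. Complex I medians lie below 0 at 1, 1.5, 4, 18 and 24 h and at 0.130 at 3 h.

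Averaged over the 6 times, 76 of 85 members were lower in oleic acid samples, with a median of -0.076 (all genes -0.005, with 52.5% lower). No gene was called (0%), while 14 members had an unadjusted p under 0.05 beside 4.56% of all genes. The lowest t belonged to Ndufa13, an accessory subunit of complex I also known as GRIM-19, at -0.15 ± 0.05, followed by Cox6a1 and Cox7c, both complex IV subunits, at -0.15 ± 0.06 and -0.16 ± 0.06 (adjusted p = 0.998 for each). The highest belonged to Atp5s, Cox4i2 and Ndufa8, at 0.09, 0.08 and 0.04. Of the 75 subunits 48 were lower at 1, 1.5, 4 and 18 h, and 46 of these were higher at 3 h. A further count was 2 genes lower at all 6 times and 0 higher at all 6. The times were grouped with earlier results known, and no such count was made over all genes. Subunit genes varied together across arrays, so these counts are a description and not separate results of single genes. The test of whether the oleic acid difference varied with time called no member and no gene on the array (0%), with 2 members at an unadjusted p under 0.05 beside 5.44% of all genes, so the opposite sign at 3 h is a description. Each time had its own serum samples, so these differences share no controls.

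The tissue-restricted paralogs did not follow the broadly expressed counterparts in sign at every time, and the differences between paralogs were not tested. At 18 h 5 of 7 were higher in oleic acid samples, with a median of 0.168, when 73 of 75 subunits of complexes I to V were lower. Cox7b2 stood at -4.09 and -3.50 in serum and -3.43 and -3.48 in oleic acid samples, while Cox7b stood at 5.98 and 5.93 against 5.85 and 5.72. Cox4i2 stood at -1.0 and -1.26 against -0.74 and -0.94, and Cox4i1 at 7.85 and 7.69 against 7.61 and 7.54. The sign of Cox4i2 turned to -0.395 with slide as a fixed term. Cox6b2, a sperm paralog, stood at -0.05 and -0.24 against 0.12 and 0.02, and Cox6b1 at 3.55 and 3.46 against 3.39 and 3.00. Cox6a2, the heart and muscle paralog, was lower with its counterpart: it stood at 2.94 and 2.52 against 2.25 and 2.19, a difference of -0.51 ± 0.25 (1.42-fold, adjusted p = 0.671), and Cox6a1 at 8.59 and 8.48 against 8.26 and 8.30. Cox7a1 and Cox7a2 stood at 0.07 and -0.29 and Cox8b and Cox8a at 0.17 and -0.28 as 18 h differences, and Ndufa4l2 and Ndufa4 at -0.31 and -0.24. The paralogs varied more between samples of a group, with a median SD of 0.258 against 0.161 for the 12 broad complex IV genes. The mean level of each paralog was also below that of every broad complex IV gene, and SDs at like signal were not compared.

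The 3 genes for the c ring of ATP synthase make the same mature protein. Their 18 h differences were -0.30 for Atp5g1, -0.23 for Atp5g2 and -0.07 for Atp5g3, and their 24 h differences -0.06, -0.18 and 0.14, none past the test.

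Time after injection gave calls where treatment did not. Between 3 and 4 h and the first times (1 and 1.5 h), 80 of 85 members were higher, with a median of 0.122, while 39.7% of all genes were lower and the all-gene median was 0.046. By limma 5 members passed, all higher, beside 9.49% of all genes in either direction and 6.73% higher, so the share called was close to that of all genes. At an unadjusted p of 0.05 there were 31 members beside 26.7% of all genes. Over the 12 early arrays Ndufs7, an iron-sulfur core subunit of complex I, ran from 5.70 through a median of 5.90 to 6.02, and over the 10 arrays of 3 and 4 h from 5.88 through 6.10 to 6.46. It rose by 0.23 ± 0.06 (adjusted p = 0.0203). Ndufs4 ran from 3.56 through 3.77 to 3.93 and then from 3.74 through 4.00 to 4.19, and rose by 0.19 ± 0.05 (adjusted p = 0.0271). Atp5a1, the alpha subunit of the catalytic head, rose by 0.22 ± 0.07, Ndufa10 by 0.14 ± 0.04 and Cox4nb by 0.27 ± 0.08 (adjusted p of 0.0431, 0.0422 and 0.0292). The arrays of the compared times overlapped for each of these genes. Atp5a1 and Ndufa10 lost their calls in most fits that left out 1 sample.

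Slide 4 held 8 arrays, 5 of them from 4 h samples and 3 from other times (1 of 3 h and 2 of 18 h). Ndufs4 ran from 3.95 to 4.19 on slide 4 and from 3.74 to 3.86 on slide 3, the slide with the other 3 h arrays. Ndufs7 ran from 6.03 to 6.46 on slide 4 and from 5.83 to 6.06 on slide 3. With slide as a fixed term the median of the members turned to -0.156, Ndufs7, Ndufs4 and Atp5a1 turned to -0.050, -0.174 and -0.168, and 0 members were called, as with slide as a random term. No member was called without serum 4 h replicate 2 either, nor without the 4 arrays lowest in the cerebellar gene Gabra6, and 13 were without oleic acid 1 h replicate 3. All 9 oligodendrocyte genes were higher at 3 and 4 h (median 0.170) and 29 of 29 cytosolic ribosomal protein genes were higher (0.129). Red blood cell genes were higher in 5 of 7 (median 0.549), and Hba-a2, Alas2 and Hbb-b1 rose by 0.58, 0.62 and 0.61. The astrocyte genes Gja1 and Sox9 fell by 0.38 and 0.32, the endothelial genes Slco1a4 and Tek by 0.35 and 0.34 and the microglia gene P2ry12 by 0.33, while the medians of their lists were 0.016, -0.067 and 0.011. The part of these lists was not tested.

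Between 18 and 24 h and 3 and 4 h, 69 of 85 members were lower, with a median of -0.084 and an all-gene median of -0.018, with 53.6% of all genes lower. Of the members 3 passed, beside 12.7% of all genes (4.95% higher and 7.71% lower). Ndufs4 fell by 0.21 ± 0.06 (adjusted p = 0.0186), with the 9 late arrays running from 3.48 through a median of 3.75 to 4.03. Atp5a1 ran from 5.68 through 6.01 to 6.28 at 3 and 4 h and from 5.46 through 5.66 to 6.06 later, and fell by 0.27 ± 0.07 (adjusted p = 0.0201). Ndufab1 rose, from -2.25 through -1.91 to -1.63 at 3 and 4 h to between -1.83 and -1.37 later, with a median of -1.65 and a difference of 0.28 ± 0.09 (adjusted p = 0.0391). The call of Ndufab1 was lost in most fits that left out 1 sample. With slide as a fixed term the median was 0.013 and Atp5a1 turned to 0.128, while Ndufab1 stayed higher at 0.79 ± 0.22 without passing (adjusted p = 0.134). Without serum 3 h replicate 1 the number called was 1, and without the 3 arrays high in the pituitary gene Prl it was 0. Cerebellar genes were higher in 11 of 11 (median 0.875) and neuronal genes lower in 11 of 12 (-0.148) in the late samples. Endothelial genes were higher in 7 of 8 (0.166), oligodendrocyte genes lower in 8 of 9 (-0.059) and red blood cell genes lower in 6 of 7 (-0.467), and the part of these lists was not tested.

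Between 18 and 24 h and 1 and 1.5 h the members were nearly level, with 57 of 85 higher, a median of 0.027 and an all-gene median of 0.025. By limma 3 members passed, all higher, beside 11.2% of all genes (6.23% higher and 5% lower). Ndufs8, an iron-sulfur core subunit of complex I, ran from 3.05 through 3.19 to 3.32 in the 12 early arrays and from 3.00 through 3.36 to 3.72 in the 9 late ones, and rose by 0.23 ± 0.07 (adjusted p = 0.0273). Ndufab1 ran from -2.44 through -1.89 to -1.50 and then from -1.83 through -1.65 to -1.37, and rose by 0.27 ± 0.08 (adjusted p = 0.0333). The early and late arrays overlapped for both genes. With slide as a fixed term no member passed: Ndufab1 was at 0.33 ± 0.20 and Ndufs8 turned to -0.082. Without serum 24 h replicate 1 the number called was 1, and without oleic acid 1.5 h replicate 1 it was 6.

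The array annotation, on mm9, places these probes on the genes' own chromosomes: Ndufs8 at chr19:3911177-3911236, Ndufab1 at chr7:129231667-129231726, Ndufs4 at chr13:115078980-115079039 and Ndufs7 at chr10:79719478-79719537. The chosen probes of Cox5b and Atp5k lie on other chromosomes than their genes, on chr15 and chrY. Their other probes gave like values at 4 h: -0.195 and -0.224 for Cox5b, and -0.302, -0.331 and -0.271 for Atp5k. Of the 25 members with more than 1 probe, all probes had the same sign in 16 to 23 genes, depending on the comparison.

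**Figure D3:**
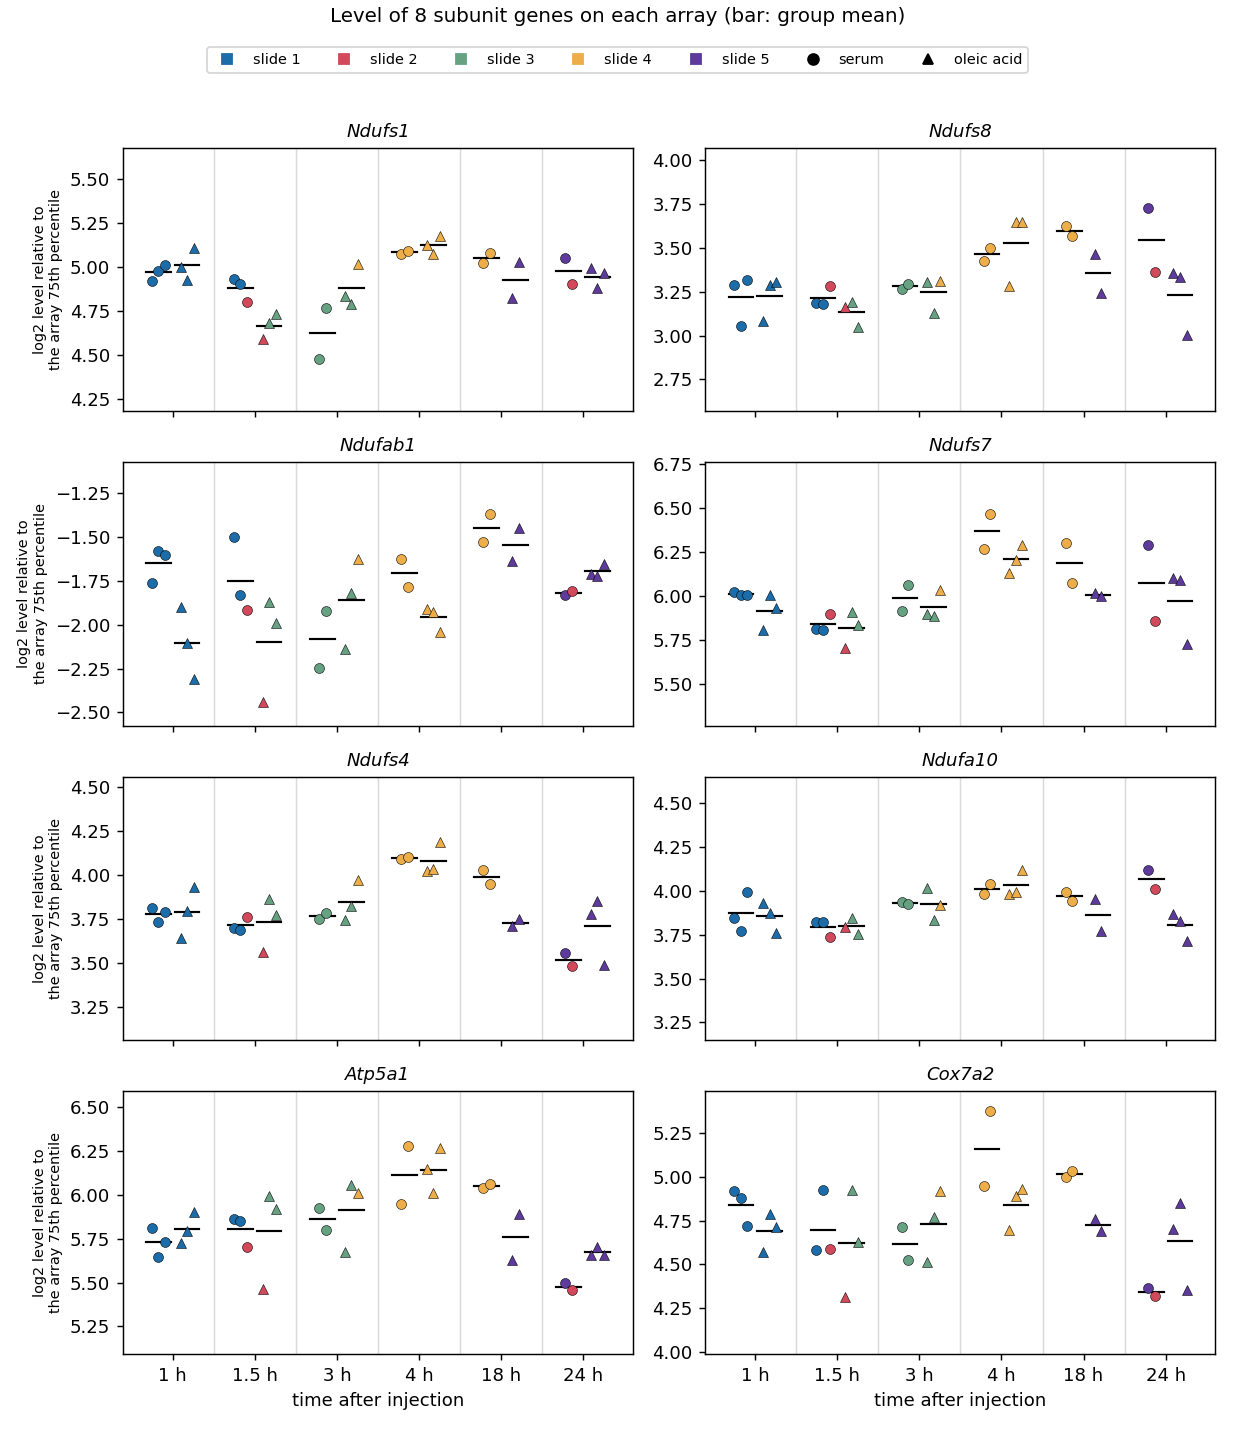
Level of 8 subunit genes on each array (log2, minus the array's 75th percentile; circles serum, triangles oleic acid, colour the slide, bars the group means), by time after injection. Ndufs4 lies from 3.95 to 4.19 on slide 4, and Ndufs1 from 4.59 to 4.73 in the oleic acid samples of 1.5 h.

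The 1 time comparison run within a slide set the serum samples of 18 h against those of 4 h, all on slide 4. Others that the slides allow, such as oleic acid samples of 18 and 24 h on slide 5, were not made. Of 85 members 73 were lower at 18 h, with a median of -0.122 (all genes -0.036, 56% lower), and 0 were called beside 0.928% of all genes. No member had an unadjusted p under 0.05, beside 10.7% of all genes, and 35 members were lower and 3 higher without overlap, beside 23.3% and 15.6%. Ndufab1 stood at -1.63 and -1.79 at 4 h and -1.53 and -1.37 at 18 h, higher without overlap. Atp5j2, Sdhb (the iron-sulfur subunit of complex II) and Uqcrh (the hinge protein of complex III) had the lowest t, at -0.26, -0.25 and -0.25. The median was -0.054 without serum 4 h replicate 2, -0.027 after quantile normalization and -0.030 in the deposited value table.

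Across all 6 times, serum samples gave 4 members by the F-test of limma, beside 10.5% of all genes: Ndufs4 (adjusted p = 0.0329), Atp5f1 (0.0458), Cox7a2 (0.0463) and Ndufv2 (0.0481). The call of Ndufv2 was lost whichever serum sample was left out, with a lowest adjusted p of 0.051 (without serum 1.5 h replicate 3). Atp5f1 and Cox7a2 lost theirs in most such fits. In serum samples Cox7a2, a complex IV subunit, ran from 4.32 and 4.37 at 24 h to 4.95 and 5.37 at 4 h, and Atp5f1 from 3.74 and 3.94 at 24 h to 4.57 and 4.68 at 18 h. Oleic acid samples gave 2, beside 7.06% of all genes: Ndufs1 (adjusted p = 0.0367), lowest at 1.5 h with 4.59 to 4.73 and highest at 4 h with 5.07 to 5.17, and Cox4nb (0.0405). Both calls were lost in most fits that left out 1 oleic acid sample. At an unadjusted p of 0.05 there were 30 members in serum samples and 12 in oleic acid samples, beside 34.6% and 26.3% of all genes. In serum samples 0 passed without serum 3 h replicate 1, and in oleic acid samples 0 without oleic acid 1.5 h replicate 1. No member passed either test with slide as a fixed term, or without the 4 arrays low in the cerebellar gene Gabra6.

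The other genes of the pathway were followed by lists drawn up for the tissue. None of their genes passed in any oleic acid comparison. The 12 mitochondrially encoded transcripts went against the nuclear subunits in the sign of the median at 1.5 h (0.092, 10 of 12 higher) and at 3 h (-0.075, 9 of 12 lower). In the late samples 11 of 12 were lower than at 1 and 1.5 h, with a median of -0.140, and 3 passed: ND4L fell by 0.49 ± 0.08 (adjusted p = 0.000552), ND1 by 0.45 ± 0.08 (0.00104) and ND4 by 0.19 ± 0.06 (0.0257), all mitochondrial subunits of complex I. Against 3 and 4 h, 11 of 12 were again lower (median -0.200), with ND4L, ND4 and COX3 past the test. The annotation puts the ND4L and COX3 probes at a matching stretch of chromosome 1 and not on the mitochondrial genome, and which copy their signal came from was not tested. With slide as a fixed term ND1 was at -0.54 ± 0.25 and ND4L at -0.36 ± 0.22, neither past the test.

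Among 20 genes of the citric acid cycle and pyruvate oxidation, Pdk4, the kinase that shuts down pyruvate dehydrogenase, rose by 0.60 ± 0.09 at 3 and 4 h (adjusted p = 0.000259) and was lower later by a difference of -0.75 ± 0.09 (1.35e-05). Within slide 4, serum samples differed by -0.98 ± 0.20 between 18 and 4 h (adjusted p = 0.0165). Pdk1 also passed, with -0.30 ± 0.07 from the first to the last times. Of 15 regulators Ppargc1a, which encodes PGC-1alpha, fell by 0.78 ± 0.14 from 1 and 1.5 h to 18 and 24 h (adjusted p = 0.00154), Polg, the mitochondrial DNA polymerase, rose by 0.29 ± 0.08, and Tfb1m, a mitochondrial rRNA methyltransferase, was lower at 3 and 4 h by a difference of -0.31 ± 0.06 and higher later. With slide as a fixed term Ppargc1a was at -0.27 ± 0.39 in the comparison of the last with the first times and Pdk4 at 0.30 ± 0.32 in that of 3 and 4 h with the first times, neither past the test. Of 28 assembly factors Sdhaf1, for complex II, rose by 0.21 ± 0.05 at 3 and 4 h and fell by 0.21 ± 0.05 later, Tmem126b, for complex I, rose later by 0.26 ± 0.07, and Ndufaf4, also for complex I, fell by 0.36 ± 0.11 from the first to the last times. Of 14 electron carriers and coenzyme Q enzymes Coq6 rose by 0.27 ± 0.07 at 3 and 4 h and Coq7 fell by 0.22 ± 0.07 later. With slide as a fixed term no gene of these 5 lists passed in the 3 comparisons of pooled times, and the share of all genes called was 0.0119% at 3 and 4 h against the first times, 0.127% in the last against the first and 0.425% in the last against 3 and 4 h. Coq7 then turned to 0.23 ± 0.16, Coq6 was at 0.14 ± 0.27, Polg at 0.06 ± 0.24 and Pdk1 at -0.19 ± 0.24. Ndufaf4 was at -0.22 ± 0.34 and Tmem126b at 0.24 ± 0.22. Sdhaf1 was at 0.25 ± 0.17 and later -0.26 ± 0.16, and Tfb1m at -0.31 ± 0.23 and later 0.44 ± 0.21, close to the values without the slide term. None of 14 mitochondrial carrier and outer membrane genes passed in any of the time comparisons.

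Cell type genes were read beside these results because the label says only brain. The filter was passed by 12 neuronal, 8 astrocyte and 9 oligodendrocyte genes of the lists, and the cerebellar gene mean ran from -2.86 in serum 4 h replicate 2 to 1.59 in serum 1 h replicate 2. Leaving out the 4 arrays lowest in Gabra6, a granule cell gene of the cerebellum, gave medians of the subunits of complexes I to V of -0.174 at 1.5 h and -0.107 at 4 h, in place of -0.094 and -0.157. Leaving out the 3 arrays high in the pituitary gene Prl, all from 24 h, gave -0.049 at 24 h in place of -0.078.

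**Figure D4:**
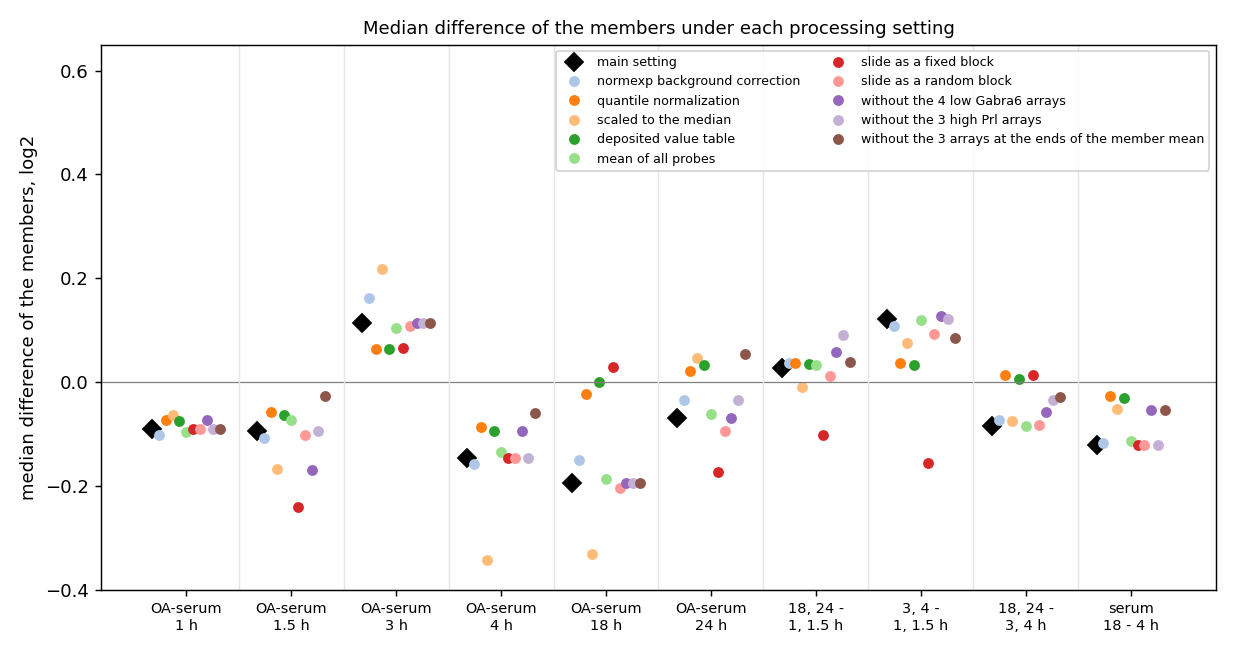
Median difference of the member genes (log2) in each comparison under the main setting (diamonds) and 10 other settings (coloured points). At 1 h and 4 h all settings lie below 0 and at 3 h all lie above 0, while at 18 h they run from -0.331 to 0.028.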

How the data were processed

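Brain RNA of 31 samples was measured on single-colour Agilent arrays of 62976 spots on 5 slides. Per the file headers and the submitters' processing notes, the authors' scanner files come from Agilent Feature Extraction 10.5.1.1 and hold spot intensity, background-subtracted and detrended as processed signal; raw mean and background intensity are deposited beside it, with flags of 0 or 1 for each spot. The deposited value table holds log2 values with nearly the same distribution on every array, as quantile normalization leaves them, and with no gene centring; this was read from the values, and the authors' own steps are not given in the sources used here.

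From these, log2 processed signal minus the array's 75th percentile was computed, non-uniform spots were dropped and repeated spots averaged. A probe was kept if all arrays of any of the 12 groups had it well above background (35653 of 55681) and if no array lacked a value (35499). The brightest probe of each gene was used, for 25204 genes. Group means were fitted to all 31 arrays with limma 3.58.1 (lmFit and eBayes, R 4.3.3), with Benjamini-Hochberg adjustment over all 25204 genes and a threshold of 0.05; values after ± are standard errors. Tables and figures used Python 3.11.15, pandas 2.3.3 and matplotlib 3.10.9. The fit was run on simulated data with independent noise, without slide effects or correlation between genes, so that run does not cover these features of the arrays. The 75th percentile of intensity was 306 to 813, 54.3% to 76.3% of spots were well above background and 0 were saturated; the number of arrays limits the precision.

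Members, lists and tests were chosen with earlier results of these data known. Genes are named where they passed the test or, where none did, as the 3 with the highest and the 3 with the lowest moderated t, with paralogs beside their counterparts and up to 4 genes of a pathway list; of 1 member no values are reported here, and it stays in the counts and medians. Replicate numbers were not taken to pair samples: same-numbered samples of a time had correlations from -0.621 to 0.390, and differently numbered ones from -0.523 to 0.643. Where a group has 2 samples, their correlations with another sample are equal with opposite signs by construction. The alternatives were other background correction, scaling, filters, probes, slide or replicate blocks and left-out arrays. Probe positions are those of mm9 in the array annotation.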

Additional observations from a re-analysis of the deposited data

How the results depend on the processing

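Medians of the members kept their sign at 1, 1.5, 3 and 4 h under every setting run. The median at 18 h, -0.194, was -0.022 after quantile normalization, -0.331 after scaling to the median, -0.000036 in the deposited value table and 0.028 with slide as a fixed block. Scaling to the median also gave 0.218 at 3 h, -0.342 at 4 h and 0.047 at 24 h, and put the all-gene median at 0.126, -0.188 and -0.177 at 3, 4 and 18 h, in place of 0.022, 0.008 and -0.040. The 24 h median was further 0.033 in the value table, -0.174 with the slide block and within slide 5, 0.055 without the 3 arrays at the ends of the member mean, and from -0.174 to 0.055 with single samples left out. The 1.5 h median was -0.240 with the slide block and within slide 2. The median of 18 and 24 h against 3 and 4 h was 0.014 after quantile normalization and 0.013 with the slide block. Serum 18 h against 4 h gave -0.027 (quantile) and -0.030 (value table). With the slide block, 18 and 24 h against 1 and 1.5 h gave -0.103 and 3 and 4 h against them -0.156. The cause of these shifts was not tested.

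Counts of called members were 0 in all 5 time tests that called any after scaling to the median, and with slide as a fixed or a random block. For 3 and 4 h against 1 and 1.5 h the count of 5 became 12 with normexp, 2 with quantile normalization, 3 with no filter, 0 without the 4 low Gabra6 arrays and 1 without the 3 end arrays, and ran from 0 to 13 with single samples left out. For 18 and 24 h against 3 and 4 h, 3 became 5 with normexp and with the value table, 0 without the low Gabra6 or the 3 high Prl arrays, and 1 to 4 with samples left out. For 18 and 24 h against 1 and 1.5 h, 3 became 5 with quantile normalization, 7 with the value table, 1 without the low Gabra6 arrays, 5 without the high Prl arrays, 7 without the end arrays, and 1 to 6 with samples left out. Across times in serum samples, 4 became 2 (quantile), 0 (no filter), 0 (without low Gabra6), 1 (without high Prl), 7 (eBayes with trend and robust) and 0 to 4 with samples left out. In oleic acid samples, 2 became 1 (quantile), 1 (value table), 0 (no filter), 0 without the low Gabra6, high Prl or end arrays, and 0 to 3 with samples left out. The replicate block gave 1 in place of 2 there and moved no other count of called members by over 1.5 times.

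Signs of single genes turned as follows. At 1.5 h Ndufa6 was -0.0049 after scaling to the median and -0.043 with the slide block, and Cox6b1 -0.021, -0.203 and, without the low Gabra6 arrays, -0.011. At 4 h scaling to the median gave Atp5f1 -0.049 and Cox4nb -0.061. The slide block gave Cox4i2 -0.395, Ndufs4 0.112 and Ndufv2 0.291 at 18 h, Ndufs8 -0.082 in the late against the first times, Ndufs7 -0.050, Ndufs4 -0.174 and Atp5a1 -0.168 at 3 and 4 h against the first, and Atp5a1 0.128 in the late times against 3 and 4 h. With samples left out in turn, ranges crossing 0 were -0.034 to 0.302 for Ndufa9 and -0.092 to 0.328 for Uqcrc1 at 1 h, -0.053 to 0.188 for Cox6b1 at 1.5 h, -0.399 to 0.125 for Cox4nb at 3 h, -0.178 to 0.472 for Atp5f1 at 4 h, and -0.125 to 0.525 for Atp5f1 in serum at 18 against 4 h. The settings keeping probes with a missing spot and leaving out the end arrays were chosen after seeing the data.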
